A study of Mus musculus with 6 samples.

Results

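Fat cell genes were measured in mammary tumor tissue from mice whose mammary fat had been partly ablated, without and with the liver X receptor agonist DMHCA (N,N-dimethyl-3-β-hydroxy-cholenamide). The set was 35 genes that white or brown fat cells are known to use, taken by symbol from a table of 55385 genes, and all 35 were found. All mice were female MMTV-NeuT/ATTAC animals that carry an active rat ErbB2 transgene and FAT-ATTAC, an FKBPv-caspase-8 fusion driven by the FABP4 promoter. AP20187, which dimerizes and so activates the fusion, was given by injection from an age of 6 weeks at 0.4 mg/kg. The DMHCA group received in addition, from 8 weeks of age, a diet with 0.05% DMHCA, given as equal to about 100 mg/kg, and the control group did not. The label of the controls reads "AP20187 Vehicle", which can mean AP20187 and vehicle or the vehicle alone, and the study's methods name NeuT/ATTAC+AP mice. The labels call the tissue mammary gland fibrosis while the study describes tumors from separate mice, 3 per group. Fabp4 itself is known from some macrophages and endothelial cells besides fat cells, and the fusion was not measured here.

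White fat cells store triglyceride in a single large lipid droplet coated by perilipins and CIDE proteins, take up fatty acids released by lipoprotein lipase, and release them again through a cascade of lipases. They secrete hormones such as adiponectin and leptin, and their identity depends on the transcription factors PPARγ and C/EBPα. Brown and beige fat cells share much of this program and in addition burn fat through UCP1. In the mammary gland these cells form the fat pad in which the epithelium and its tumors grow.

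The 6 libraries held 46358654 to 63420620 counts. DMHCA libraries 1 and 3 were nearly the same: by a chi-square test, 18.2% of genes averaging 100 counts or more differed between them, against 82.0% to 87.0% in the 5 other pairs within a group, and they were summed and counted as 1 sample. The tests therefore compared 3 control samples with 2 DMHCA samples. Of the 35 genes, 34 passed the filter on low counts, and Ucp1 did not. In bulk tissue, fewer fat cells and less RNA per fat cell cannot be told apart.

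Most fat cell genes lay lower in the DMHCA samples than in the control mean, but the 3 controls differed widely and no gene passed the test over all genes. Of the 34 genes tested, 30 had a lower and 4 a higher mean with DMHCA. By edgeR's quasi-likelihood test with Benjamini-Hochberg adjustment over 19427 genes, 0 of the 34 passed an adjusted p of 0.05 in either direction (0% of all genes), with adjusted p between 0.644 and 0.924. At an unadjusted p under 0.05, 18 were lower (4.08% of all genes) and 2 higher (3.53% of all genes). DESeq2 on the same 5 samples called 14 lower (0.967% of all genes) and 0 higher (0.249% of all genes), and on the 6 libraries 19 lower (2.68% of all genes). The median log2 fold change over the 34 was -2.35, against -0.03 over all genes tested. In normalized counts every control lay above both DMHCA samples in 20 of the 34 (12.2% of all genes), and in Dio2, the only 1, both DMHCA samples lay above every control (13.8% of all genes). In TPM, control 2 was at or below a DMHCA library in Lpl, Plin1, Retn, Adrb3, Acvr1c, Tshr and Pde3b, all among these 20.

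Control 3 carried much of this difference. It was the highest of the 6 libraries in 31 of the 35 genes (26.1% of all genes), and in 32 of the 35 the controls stood in the order 3, 1, 2 (32.2% of all genes). The highest control exceeded the lowest by a median of 7.28-fold in TPM (transcript abundance scaled by length and library depth), against 1.89-fold over all genes tested. Without control 3 the median log2 fold change was -1.16, with 24 genes lower and 9 higher of 33 tested, and 16 were lower (3.27% of all genes) and 1 higher (2.16% of all genes) at an unadjusted p under 0.05. Without DMHCA 2, which leaves the near-identical pair as the only DMHCA sample, assumed to vary like the controls, the median was -2.17, with 9 lower (1.48% of all genes) and 0 higher (2.78% of all genes) at that level.

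**Figure D1:**
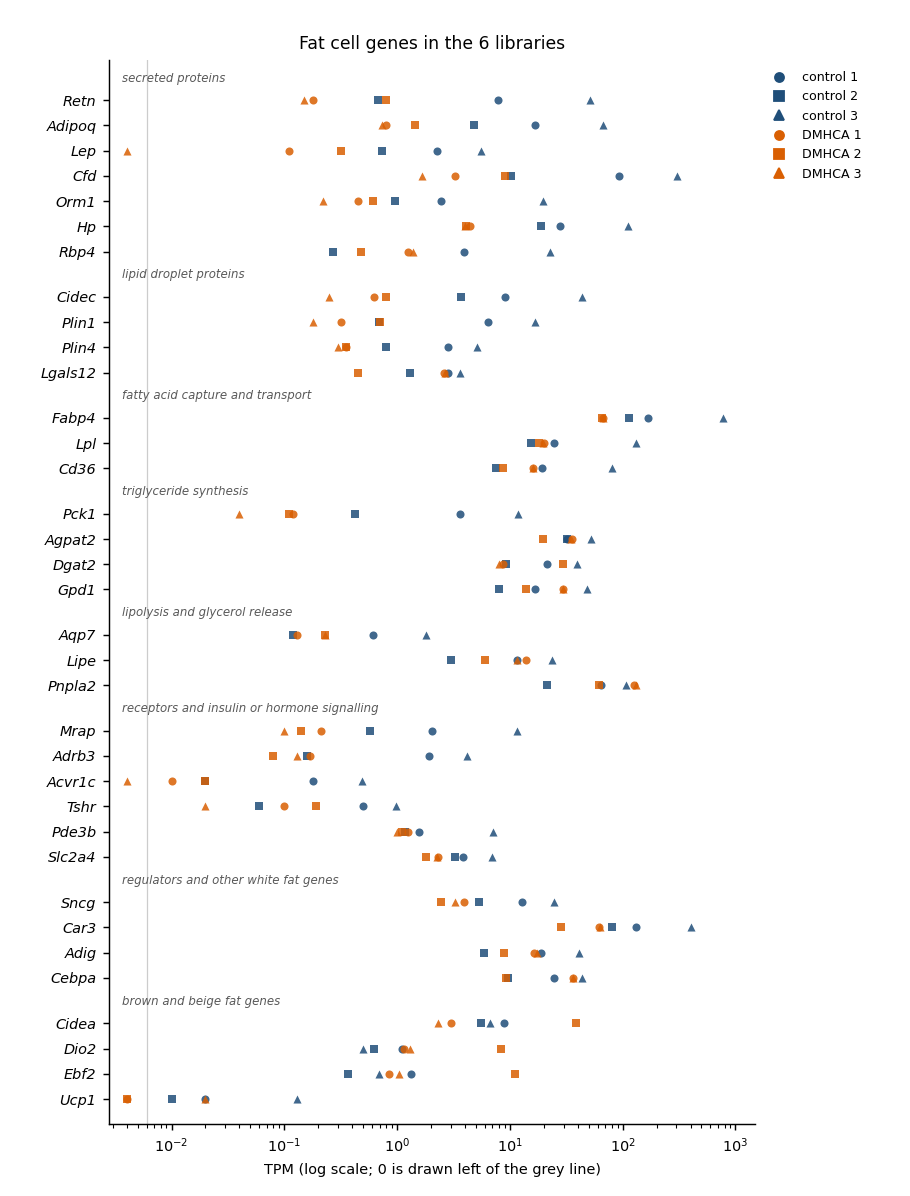
Levels of the 35 fat cell genes in TPM on a log axis, 1 point per library, with controls in blue and DMHCA libraries in orange and the genes grouped by role. Control 3 is the rightmost point in 31 genes, and DMHCA 2 stands alone to the right for Cidea, Dio2 and Ebf2.

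The promoters of a few of these genes are shown as examples of the main patterns of levels: Adipoq, Plin1, Cidec and Lep, whose levels went together over the libraries, Cebpa, whose level did not follow them, and Dio2, which was high in 1 DMHCA library. Each is the run of bases that ends just before the transcription start in RefSeq, build GRCm38.p6, printed 5′ to 3′ on the gene's own strand. For Cidec the table holds 2 starts, and the one printed, inside the gene span given below, was chosen because its window holds a match, while that of the other start, chr6:113435761-113436010, holds none. The windows were chr16:23146286-23146535 on the plus strand for Adipoq, chr7:79732777-79733026 on the minus strand for Plin1, chr6:113434765-113435014 on the minus strand for Cidec, chr6:29059971-29060220 on the plus strand for Lep, chr7:35119043-35119292 on the plus strand for Cebpa and chr12:90739039-90739288 on the minus strand for Dio2. Capitals mark TTGCNNAA, a pattern that includes the C/EBP palindrome TTGCGCAA, which among the printed sites is only that of Lep, and TATAAA, the TATA box, on either strand.
Adipoq: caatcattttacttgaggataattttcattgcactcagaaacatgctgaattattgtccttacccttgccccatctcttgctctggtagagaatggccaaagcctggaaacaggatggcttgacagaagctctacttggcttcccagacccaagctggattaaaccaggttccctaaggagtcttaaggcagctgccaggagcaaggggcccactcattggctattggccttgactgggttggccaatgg
Plin1: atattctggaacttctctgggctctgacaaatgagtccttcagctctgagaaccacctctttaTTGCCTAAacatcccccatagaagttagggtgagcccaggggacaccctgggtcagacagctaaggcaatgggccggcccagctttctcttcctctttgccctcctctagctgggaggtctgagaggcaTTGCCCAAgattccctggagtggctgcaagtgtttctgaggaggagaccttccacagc
Cidec: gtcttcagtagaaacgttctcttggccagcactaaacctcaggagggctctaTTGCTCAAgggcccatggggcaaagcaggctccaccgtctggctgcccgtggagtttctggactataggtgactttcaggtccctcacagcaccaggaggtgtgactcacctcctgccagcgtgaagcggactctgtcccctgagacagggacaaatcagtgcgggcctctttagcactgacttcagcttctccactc
Lep: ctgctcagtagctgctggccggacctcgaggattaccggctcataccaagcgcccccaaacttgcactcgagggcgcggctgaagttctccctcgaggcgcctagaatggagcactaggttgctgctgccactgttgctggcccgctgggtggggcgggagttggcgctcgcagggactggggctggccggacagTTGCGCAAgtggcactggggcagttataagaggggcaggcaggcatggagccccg
Cebpa: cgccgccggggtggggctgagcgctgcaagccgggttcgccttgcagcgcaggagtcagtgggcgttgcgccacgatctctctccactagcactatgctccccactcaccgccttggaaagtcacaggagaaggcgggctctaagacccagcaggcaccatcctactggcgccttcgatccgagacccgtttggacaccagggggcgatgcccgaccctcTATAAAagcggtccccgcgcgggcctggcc
Dio2: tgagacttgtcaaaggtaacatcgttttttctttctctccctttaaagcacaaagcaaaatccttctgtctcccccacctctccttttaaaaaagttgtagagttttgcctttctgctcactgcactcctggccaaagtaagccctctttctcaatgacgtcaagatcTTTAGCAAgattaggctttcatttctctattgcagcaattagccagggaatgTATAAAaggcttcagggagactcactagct

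The RefSeq table held promoters for 20 of the 35 genes, and the search ran over windows of 250 bases before to 50 after each start, on both strands. TTGCNNAA was found in 5 of the 20, namely Plin1 (58 and 187 bases before the start), Lep (55 bases), Dio2 (82 bases), Rbp4 (128 bases) and Cidec (198 bases), and in 12.2% of the 27025 genes of the table, each counted once if any of its windows held a match. TATAAA was found in Cebpa and Dio2 30 bases before the start and in Rbp4 28 bases before it, and in 15.7% of all genes. AGGTCA, the hexamer bound by nuclear receptors, was in 4 of the 20 (Adig, Aqp7, Cd36 and Ucp1) and in 18.1% of all genes. A direct repeat of it with 1 base between, the element of PPARγ with RXR, was in 0 of the 20 and in 0.0481% of all genes. TTGCNNAA thus occurred both in genes that were lower and in 1 that was higher in the DMHCA mean.

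Among the 7 genes for secreted proteins, all had a lower mean with DMHCA, 6 at an unadjusted p under 0.05 (4.08% of all genes), and the median log2 fold change was -4.73. Adipoq, adiponectin (ENSMUSG00000022878, chr16:23146536-23158028, GRCm38), was at 16.8, 4.84 and 67.3 TPM in controls 1, 2 and 3 and at 0.80, 1.45 and 0.73 TPM in DMHCA libraries 1, 2 and 3. All 3 controls lay above all DMHCA libraries, while control 3 was 13.9-fold above control 2. In normalized counts this was 1635 ± 1822 (SD, n = 3) in controls and 52.0 ± 17.4 (SD, n = 2) with DMHCA, and the log2 fold change was -4.98 ± 1.18 (SE; unadjusted p = 0.00458 and adjusted p = 0.644, edgeR).

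Lep, the satiety hormone leptin (chr6:29060220-29073877), was at 2.25, 0.73 and 5.59 TPM in the controls and at 0.11, 0.32 and 0 TPM with DMHCA. The count of 0 in DMHCA 3 allows up to 0.0573 CPM (counts scaled to library size), and the near-identical DMHCA 1 had 14 counts. Cfd, the complement protease adipsin (chr10:79890853-79892655), was at 92.9, 10.2 and 304.0 TPM in the controls and at 3.29, 9.0 and 1.67 TPM with DMHCA. For Cfd the lowest control was only just above the highest DMHCA library. Retn, resistin, ran from 0.68 TPM in control 2 to 51.1 TPM in control 3 and from 0.15 to 0.79 TPM with DMHCA, so the TPM of its groups overlapped. Their log2 fold changes were -4.87 ± 1.06 for Lep, -4.73 ± 1.42 for Cfd and -5.58 ± 1.90 for Retn (SE, edgeR).

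Hp, haptoglobin, which binds free hemoglobin, was at 27.7, 18.8 and 112.1 TPM in the controls and at 4.42, 4.05 and 4.01 TPM with DMHCA, the tightest DMHCA values of the secreted group. Its log2 fold change was -3.84 ± 0.85 (SE), and -2.71 without control 3. Orm1, an acute-phase plasma protein, had 0.95 TPM in control 2 and 19.7 TPM in control 3 against 0.22 to 0.61 TPM with DMHCA. Its near-identical copies Orm2 and Orm3 had at most 25 and 8 counts in any library, so reads may have been divided among the 3 genes. Rbp4, the plasma carrier of retinol, was lower in control 2 (0.27 TPM) than in any DMHCA library (0.48 to 1.38 TPM) and its groups overlapped, with a log2 fold change of -3.41 ± 1.66 (SE, unadjusted p = 0.0826). Without control 3 the log2 fold changes were -3.28 for Retn, -2.01 for Orm1 and -1.16 for Rbp4. The liver also makes Hp, Orm1 and Rbp4, and Alb, the main plasma protein of hepatocytes, was at or below 0.62 TPM in every library. The summed TPM of the 6 hepatocyte markers was 9.41, 11.7 and 3.30 in the controls and 1.45, 87.2 and 0.86 with DMHCA. Ahsg was at 8.86, 11.6 and 0.43 TPM and at 1.04, 87.1 and 0.42 TPM. It made up most of the sum except in control 3 and DMHCA 3, where Fgb was higher (2.19 and 0.44 TPM). The part of liver-type RNA in Hp, Orm1 and Rbp4 was not tested.

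Of the 4 lipid droplet proteins, all had a lower mean with DMHCA, and 3 did so without overlap of the normalized counts (12.2% of all genes). Cidec, which fuses droplets (chr6:113424634-113435760), was at 9.09, 3.69 and 43.5 TPM in the controls and at 0.62, 0.80 and 0.25 TPM with DMHCA. Plin1, the perilipin that gates lipolysis (chr7:79720218-79732903), was at 6.36, 0.69 and 16.7 TPM in the controls and at 0.32, 0.70 and 0.18 TPM with DMHCA, so control 2 and DMHCA 2 were level in TPM. Plin4, a perilipin of nascent droplets, was at 2.83, 0.80 and 5.11 TPM against 0.35, 0.35 and 0.30 TPM. The log2 fold changes were -5.07 ± 1.19 for Cidec, -4.33 ± 1.29 for Plin1 and -3.22 ± 0.78 for Plin4 (SE, edgeR). Lgals12, a galectin on lipid droplets, was instead near its control level in DMHCA 1 and 3 (2.63 and 2.68 TPM) and low in DMHCA 2 (0.45 TPM), against 2.83, 1.3 and 3.60 TPM in the controls. Its log2 fold change was -0.82 ± 0.84 (SE), 0.02 without DMHCA 2 and -2.78 with DMHCA 2 as the only DMHCA sample.

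The 3 genes for capture and transport of fatty acids differed less between the groups. Fabp4, the fatty acid binding protein whose promoter drives the caspase fusion (chr3:10204088-10208576), was the most abundant of the 35 genes in control 3. It was at 168.2, 113.2 and 780.5 TPM in the controls and at 66.9, 65.5 and 67.5 TPM with DMHCA, with the DMHCA libraries close together and below every control. The log2 fold change was -2.57 ± 0.86 (SE, unadjusted p = 0.0213, edgeR), and -1.29 without control 3. Lpl, lipoprotein lipase, was at 24.5, 15.4 and 132.2 TPM against 19.9, 18.2 and 19.6 TPM, and Cd36, a fatty acid translocase, at 19.2, 7.56 and 81.1 TPM against 15.98, 8.63 and 16.01 TPM. For both, control 3 alone stood out, and without it the log2 fold changes of -1.76 ± 0.90 and -1.68 ± 0.93 (SE) became -0.28 and -0.28. Macrophages and capillary endothelium also express these genes, and the summed TPM of 8 macrophage markers was 796.1 to 1005 in controls and 678.6 to 864.8 with DMHCA, while that of 8 endothelial markers was 59.7 to 85.3 and 76.5 to 88.5. Their part in the levels was not tested.

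Among the genes of triglyceride synthesis, Pck1 differed from the other 3. Pck1, the carboxykinase that makes the glycerol backbone from non-sugar precursors (chr2:173153048-173159273), was at 3.64, 0.42 and 11.7 TPM in the controls and at 0.12, 0.11 and 0.04 TPM with DMHCA. Its log2 fold change of -5.84 ± 1.44 (SE, unadjusted p = 0.00551) was the lowest of the 34, and DMHCA libraries held only 4 to 12 counts of it. Agpat2, an acyltransferase of phosphatidic acid synthesis, was at 32.2, 32.1 and 52.8 TPM against 35.8, 19.7 and 35.1 TPM. Gpd1, which makes glycerol phosphate from a glycolytic intermediate, was at 16.6, 8.04 and 48.1 TPM against 29.5, 13.9 and 29.8 TPM. Dgat2, which adds the last acyl chain, was at 21.3, 9.15 and 39.5 TPM against 8.64, 29.4 and 7.96 TPM. In these 3 the groups overlapped, and the log2 fold changes of -0.68 ± 0.40, -0.29 ± 0.72 and -0.49 ± 0.66 (SE) were within 2 standard errors of 0.

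The 3 genes of lipolysis and glycerol release had overlapping groups in normalized counts and stood in the control order 3, 1, 2. Pnpla2, adipose triglyceride lipase, which cuts the first acyl chain (chr7:141455198-141460743), was at 63.8, 21.4 and 106.4 TPM in the controls and at 126.7, 62.3 and 132.1 TPM with DMHCA. Its 2 highest libraries were thus the near-identical DMHCA pair, and the log2 fold change was 0.46 ± 0.60 (SE, unadjusted p = 0.471) and 1.01 without control 3 (unadjusted p = 0.111, edgeR). On 6 libraries with the replicate number as a block it was 0.74 (unadjusted p = 0.0223 and adjusted p = 0.240, edgeR). That fit counts the near-identical pair as separate samples, and the replicate numbers are not known to pair the samples. Lipe, hormone-sensitive lipase, which acts next, was at 11.5, 3.03 and 23.7 TPM against 14.0, 5.97 and 11.5 TPM, a log2 fold change of -0.44 ± 0.71 (SE) with overlapping groups. Aqp7, the channel through which glycerol leaves the cell, was low throughout, at 0.61, 0.12 and 1.82 TPM against 0.13, 0.23 and 0.23 TPM. Its log2 fold change was -2.26 ± 1.07 (SE, unadjusted p = 0.0752, edgeR), and -1.03 without control 3.

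All 6 genes for receptors and hormone signaling had a lower mean with DMHCA, with no overlap of the normalized counts in any of them (12.2% of all genes). Mrap, the accessory protein of the corticotropin receptor, was at 2.05, 0.58 and 11.6 TPM against 0.21, 0.14 and 0.10 TPM. Adrb3, the β3-adrenergic receptor that starts lipolysis, was at 1.93, 0.16 and 4.20 TPM against 0.17, 0.08 and 0.13 TPM, and DMHCA libraries held 6 to 9 counts of it. Acvr1c, the activin receptor ALK7, had 1 to 5 counts and Tshr, the thyrotropin receptor, 3 to 7 counts in the DMHCA libraries, with 0.18, 0.02 and 0.49 TPM of Acvr1c and 0.50, 0.06 and 0.98 TPM of Tshr in the controls. The TPM of control 2 was level with DMHCA 2 for Acvr1c (0.02) and below DMHCA 1 and 2 for Tshr (0.10 and 0.19). For Adrb3 it was just below DMHCA 1. Mrap, Adrb3, Acvr1c and Tshr had log2 fold changes of -5.15 ± 1.42, -4.74 ± 1.37, -4.67 ± 1.49 and -3.93 ± 1.26 (SE, edgeR), and at such counts the size of the fold is poorly fixed. Pde3b, the phosphodiesterase through which insulin restrains lipolysis, was at 1.55, 1.17 and 7.05 TPM against 1.24, 1.11 and 1.0 TPM. The controls other than control 3 were thus close to DMHCA, and control 2 was below DMHCA 1 in TPM. Slc2a4, the insulin-responsive glucose transporter GLUT4, was at 3.81, 3.25 and 6.94 TPM against 2.31, 1.82 and 2.26 TPM, with a log2 fold change of -1.45 ± 0.54 (SE, unadjusted p = 0.0342).

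Cebpa, the C/EBPα regulator of fat cell identity (chr7:35119293-35121928), was at 24.6, 9.61 and 43.7 TPM in the controls and at 36.3, 9.19 and 36.4 TPM with DMHCA. The near-identical DMHCA pair was above controls 1 and 2, and DMHCA 2 was level with control 2. The log2 fold change was -0.28 ± 0.73 (SE), and DMHCA 2 held 0.231 of the normalized count of the summed pair. Adig, the small fat cell protein adipogenin, was at 18.7, 5.95 and 40.7 TPM against 16.4, 8.79 and 17.2 TPM, a log2 fold change of -0.80 ± 0.78 (SE). Car3, a carbonic anhydrase abundant in fat and muscle, was at 130.2, 80.6 and 407.1 TPM against 61.2, 28.1 and 62.6 TPM, with every control above every DMHCA library. Sncg, γ-synuclein, which is expressed in white fat and neurons, was at 12.7, 5.33 and 24.8 TPM against 3.88, 2.45 and 3.29 TPM and did not overlap either. The log2 fold changes of Car3 and Sncg were -2.33 ± 0.77 and -2.37 ± 0.72 (SE, edgeR), and -1.41 and -1.71 without control 3. Skeletal muscle also expresses Car3 and Slc2a4, and the summed TPM of 9 muscle markers was 706.9, 1263 and 877.9 in the controls and 1038, 300.4 and 1119 with DMHCA. Its part in the levels was not tested.

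**Figure D2:**
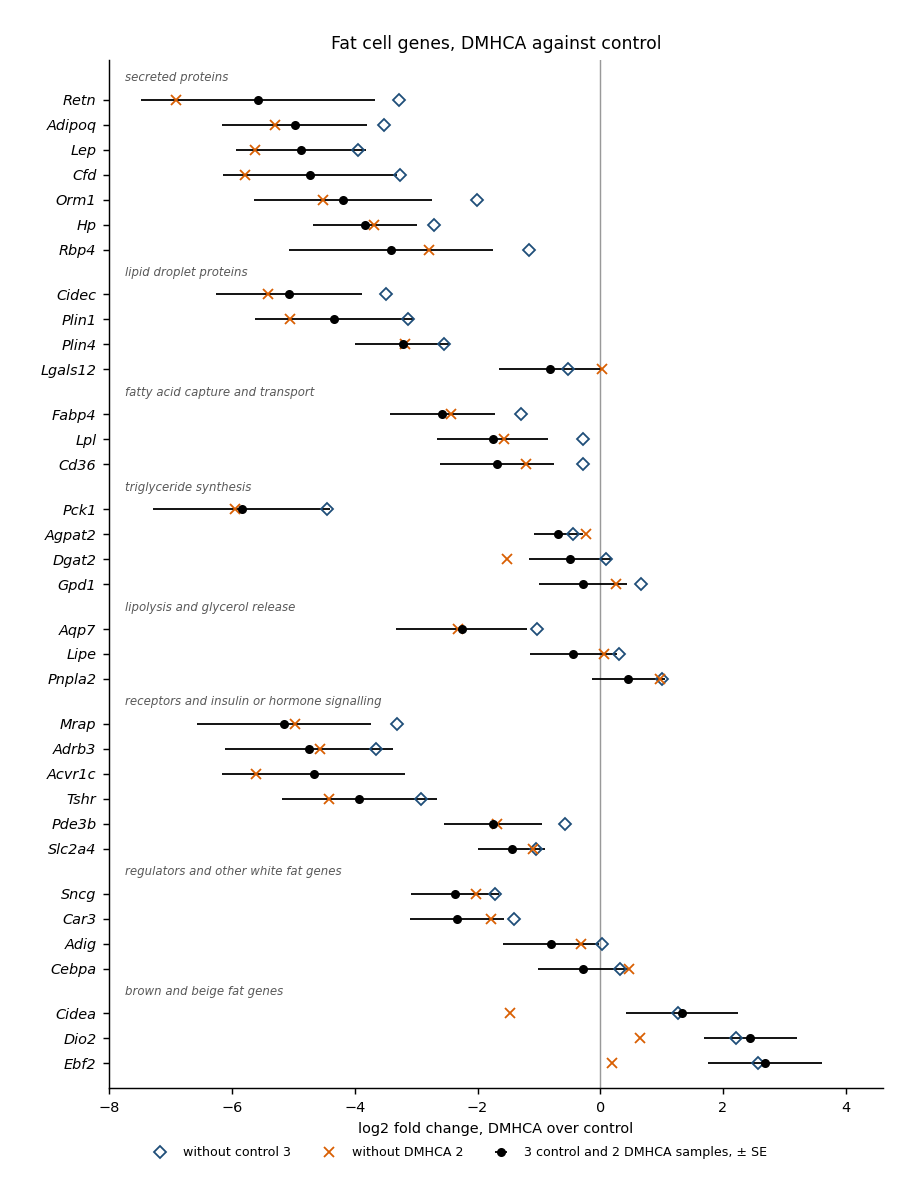
Log2 fold change of DMHCA over control for the 34 tested genes by role, with black points and SE bars from 3 control and 2 DMHCA samples, blue diamonds without control 3 and orange crosses without DMHCA 2. Pck1, Retn and Mrap lie furthest left, the genes near 0 include Gpd1, Cebpa and Lipe, and Cidea, Dio2 and Ebf2 move toward or past 0 when DMHCA 2 is left out.

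Of the 4 brown and beige fat genes, Ebf2, Dio2 and Cidea were high in 1 DMHCA library rather than in the group, and Ucp1 was not. Ebf2, an early regulator of brown fat precursors (chr14:67233292-67430918), was at 1.32, 0.37 and 0.69 TPM in the controls and at 0.85, 11.1 and 1.03 TPM in DMHCA 1, 2 and 3. Dio2, the deiodinase that activates thyroid hormone (chr12:90724552-90738438), was at 1.11, 0.62 and 0.50 TPM against 1.16, 8.28 and 1.3 TPM. Cidea, a CIDE protein of brown fat droplets, was at 8.92, 5.50 and 6.68 TPM against 3.0, 39.0 and 2.31 TPM. DMHCA 2 was the highest library for all 3 (33.5% of all genes), and in normalized counts it exceeded the summed DMHCA 1 and 3 by 10.5-fold, 6.16-fold and 13.3-fold. The log2 fold changes were 2.68 ± 0.93 for Ebf2, 2.45 ± 0.76 for Dio2 and 1.33 ± 0.91 for Cidea (SE), at unadjusted p of 0.0252, 0.0159 and 0.189 by edgeR. Without DMHCA 2 they were 0.19, 0.64 and -1.47.

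Ucp1, the uncoupling protein that defines heat-producing fat, had 1, 1 and 7 counts in the controls and 0, 0 and 1 in the DMHCA libraries. At this depth a count of 0 allows up to 0.0569 CPM in DMHCA 2, the library with the most Cidea, Dio2 and Ebf2. In the list of 14 other thermogenic genes 11 were tested and 0 had an unadjusted p under 0.05 (4.08% of all genes lower and 3.53% higher), a count too small to set them apart from other genes. Prdm16, a brown fat regulator, was at 0.15, 0.02 and 0.20 TPM in the controls and at 1.63, 0.06 and 1.42 TPM with DMHCA. Cox8b, a brown fat and muscle subunit of cytochrome oxidase, was at 20.8, 35.3 and 35.8 TPM against 22.7, 4.02 and 21.9 TPM. Of the 11 thermogenic genes tested, 9 had lower normalized counts in DMHCA 2 than in the summed pair. The 2 that were higher were Ppargc1a and Tmem26. Ppargc1a was at 6.01, 6.89 and 1.98 TPM in the controls and at 4.61, 8.32 and 4.55 TPM with DMHCA. DMHCA 2 also stood alone for Ahsg, the liver plasma protein fetuin-A, at 87.1 TPM against 0.42 to 11.6 TPM in the other libraries, and for S100a8, a neutrophil calcium-binding protein, at 199 TPM against 4.22 to 28.0 TPM. Other markers of these lists were not high in DMHCA 2: S100a9, the partner of S100a8, was at 12.9 TPM, below every control, Retnlg at 0.54 TPM, also below every control, and Ngp, Alb, Fga and Fgb at 0.01 to 0.06 TPM, while Camp, Ly6g, Ttr and Cyp3a11 were at 0. The part of these in the Cidea, Dio2 and Ebf2 levels was not tested.

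**Figure D3:**
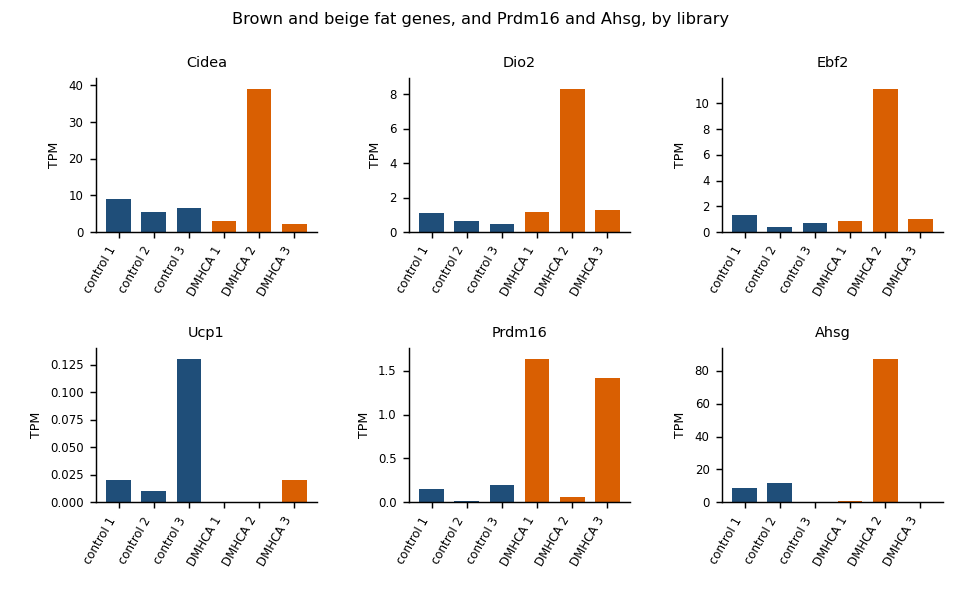
TPM of the 4 brown and beige fat genes and of Prdm16 and Ahsg in each library, with controls in blue and DMHCA libraries in orange, each panel on its own linear axis from 0. DMHCA 2 is the tallest bar for Cidea, Dio2, Ebf2 and Ahsg, while Ucp1 stays at or below 0.13 TPM and Prdm16 is highest in DMHCA 1 and 3.

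Each gene was also read against Adipoq, a gene almost confined to fat cells. The TPM of Cidec per TPM of Adipoq was 0.542, 0.762 and 0.646 in the controls and 0.775, 0.552 and 0.343 with DMHCA. For Cfd it was 5.54, 2.10 and 4.52 against 4.11, 6.21 and 2.29, and for Plin1 0.380, 0.143 and 0.248 against 0.400, 0.483 and 0.247. For these 3 genes the proportions of the groups overlapped, although Adipoq itself ranged from 0.73 to 67.3 TPM.

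For Pnpla2 the groups did not overlap, with 3.81, 4.42 and 1.58 TPM per TPM of Adipoq in the controls and 158.3, 42.9 and 181.0 with DMHCA. For Lipe the values were 0.686, 0.626 and 0.352 against 17.5, 4.12 and 15.8, for Cebpa 1.47, 1.99 and 0.650 against 45.4, 6.34 and 49.9, and for Fabp4 10.0, 23.4 and 11.6 against 83.6, 45.2 and 92.5. In all 4 the DMHCA libraries lay above every control. Of 33 genes compared, 21 had this proportion higher in every DMHCA library than in every control, as had 92.9% of all genes tested, since Adipoq itself was lower with DMHCA, and in 12 the groups overlapped. The genes formed a continuum with no gap: the lowest DMHCA value over the highest control value was 0.918 for Tshr, 0.974 for Rbp4, 1.03 for Orm1 and 1.16 for Lgals12. Those 12 were Acvr1c, Adrb3, Cfd, Cidec, Hp, Lep, Mrap, Pck1, Plin1, Rbp4, Retn and Tshr. Adipoq had only 31 to 53 counts in the DMHCA libraries, so these proportions carry its counting error, and they describe the libraries with no test.

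**Figure D4:**
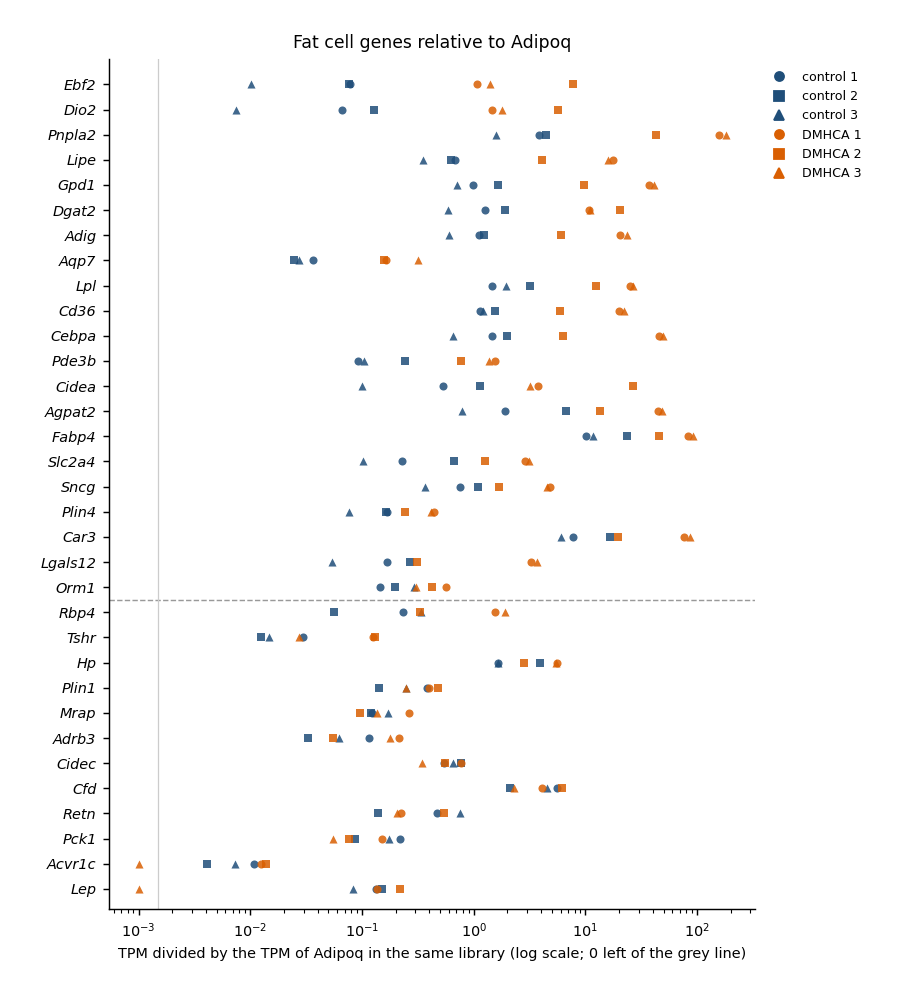
TPM of 33 genes divided by the TPM of Adipoq in the same library on a log axis, 1 point per library, with controls in blue and DMHCA libraries in orange. Below the dashed line are the 12 genes whose groups overlap, among them Cidec, Cfd and Plin1, and above it the 21 genes, such as Pnpla2 and Lipe, with every DMHCA library above every control.

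Of the 7 markers fixed for mature fat cells (Adipoq, Plin1, Cidec, Lep, Cfd, Adig and Lipe), all were detected and 5 lay without overlap higher in the controls in normalized counts (12.2% of all genes), the exceptions being Adig and Lipe. Their summed TPM was 157.5, 29.1 and 501.5 in the controls and 35.6, 27.0 and 31.6 with DMHCA, so control 2 lay within the DMHCA range. Some genes of other cell types were highest in control 3 as well, namely 8 of 8 macrophage, 6 of 8 milk and 6 of 8 fibroblast genes, against 3 of 8 endothelial, 1 of 7 luminal, 1 of 9 muscle, 4 of 7 neutrophil and 3 of 6 hepatocyte genes (26.1% of all genes). The 8 genes of milk-secreting epithelium all stood in the control order 3, 1, 2 (32.2% of all genes), with summed TPM of 23750, 16880 and 45800 in the controls and 27420, 12380 and 28290 with DMHCA. Csn2, β-casein, was at 766.0, 15.2 and 13320 TPM against 62.6, 19.5 and 50.3 TPM, and Glycam1, a milk mucin, at 119.4, 0.77 and 1133 TPM against 3.40, 1.80 and 1.0 TPM. Csn3, κ-casein, and Lalba, α-lactalbumin, were instead highest in DMHCA 3, with Lalba at 759.8, 23.6 and 1424 TPM against 3799, 36.7 and 3962 TPM. The summed TPM of the 7 luminal genes was 3868, 3440 and 3278 in the controls and 4383 to 4811 with DMHCA. Ltf, the milk and neutrophil protein lactoferrin, was at 407.4, 34.3 and 3151 TPM against 80.7, 35.1 and 80.8 TPM. The summed TPM of 8 fibroblast and preadipocyte markers was 622.7, 263.2 and 1176 in the controls and 513.3 to 561.9 with DMHCA. Of the marker lists, those of macrophages, luminal epithelium, fibroblasts and skeletal muscle had 0 genes at an unadjusted p under 0.05 (4.08% of all genes lower and 3.53% higher). The endothelial list had 1 higher (Cdh5, VE-cadherin), the milk list 2 lower (Csn2 and Glycam1), the hepatocyte list 1 lower (Alb, at most 44 counts in any library) and the neutrophil list 2 lower (Ltf and Retnlg), all by edgeR. Whether the amount of non-tumor gland in a piece of tissue bears on the fat cell genes was not tested.

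**Figure D5:**
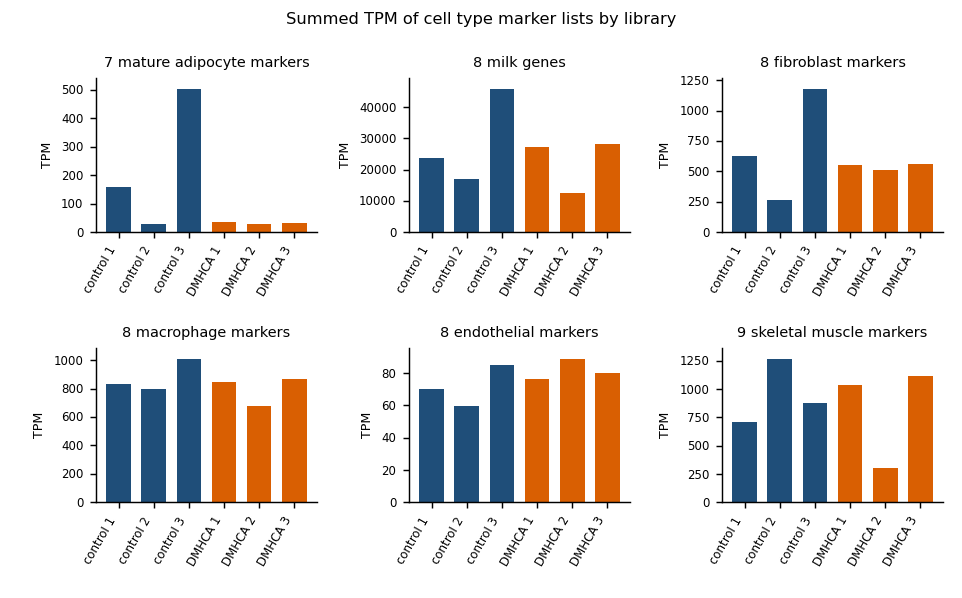
Summed TPM of 6 marker lists in each library, with controls in blue and DMHCA libraries in orange, each panel on its own linear axis from 0. The mature fat cell, milk, fibroblast and macrophage lists are highest in control 3, the macrophage list within a range of 678.6 to 1005 TPM, and the endothelial list is highest in DMHCA 2.

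The wider fat cell program was read from 57 further genes in 5 lists, of which 53 were tested. By edgeR 0 passed an adjusted p of 0.05, and at an unadjusted p under 0.05 there were 8 lower and 5 higher with DMHCA, against 4.08% and 3.53% of all genes, the shares against which the counts per list below are also to be read. The median log2 fold change over the 53 was -0.28, much nearer 0 than for the fat cell genes above. Of 9 adipogenic regulators 3 were lower and 2 higher at that level. Pparg, the partner of C/EBPα in fat cell formation, was at 1.68, 0.98 and 6.26 TPM against 1.29, 1.89 and 1.28 TPM. Its log2 fold change was -1.03 ± 0.84 (SE, unadjusted p = 0.263), and 0.11 without control 3. Srebf1, the lipogenic factor SREBP-1, which the liver X receptor induces, was at 233.6, 95.2 and 193.0 TPM against 932.2, 658.8 and 940.8 TPM, a log2 fold change of 2.01 ± 0.39 (SE). Cebpd, an early adipogenic factor, was -1.12 ± 0.26 and Cebpb, its relative, 0.91 ± 0.31 on that scale.

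Of 17 other genes of lipid storage and lipolysis 0 were lower and 2 higher at an unadjusted p under 0.05. These were Gpam, the first acyltransferase of glycerolipid synthesis, with a log2 fold change of 1.02 ± 0.27, and Fitm2, which helps form droplets, with 0.88 ± 0.34 (SE, edgeR). Of 11 other fat-enriched genes 2 were lower, namely Cyp2e1, a cytochrome P450, at -5.42 ± 1.89 and -3.06 without control 3, and Slc36a2, an amino acid transporter, at -3.68 ± 1.19 and -2.13 without control 3. Of 6 other adipokines 5 were tested, 3 were lower and 1 higher. Apln, the vascular peptide apelin, was at 2.95, 1.38 and 2.52 TPM against 7.84, 9.95 and 8.12 TPM, above every control in each DMHCA library. Serpina3c, a serine protease inhibitor, was -3.28 ± 0.84 and Rarres2, chemerin, -1.63 ± 0.61 on the log2 scale. Without control 3 they were -2.52 and -0.90. DESeq2 on the 5 samples called Srebf1 and Apln higher and Cyp2e1, Slc36a2 and Serpina3c lower.

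DMHCA 1 and 3 also bear on how well the low values are known. Of 31 genes with at least 10 counts in the 2 libraries together, 3 differed between them by an exact binomial test of the counts, adjusted over 20265 genes, all higher in DMHCA 1 (2.33% of all genes). They were Lep with 14 against 0 counts (adjusted p = 0.00758), Cfd with 94 against 46 (adjusted p = 0.00975) and Lipe with 1413 against 1166 (adjusted p = 0.0251). Plin1 with 31 against 10 and Cidec with 38 against 15 had adjusted p of 0.0593 and 0.0834. The test takes counts as independent and covers counting error only, as do the limits given for a count of 0.

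Of the 35 genes, 9 share exon bases with a gene on the other strand. These are Plin4, Cebpa, Lipe, Agpat2, Adrb3, Acvr1c, Gpd1, Dio2 and Ebf2, and since the use of strand in the counting was not given in the sources used here, reads of the partners may be included in their values.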

How the data were processed

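The files hold RNA-seq gene tables for 6 libraries. According to the study's processing notes, the authors checked reads with FastQC 0.11.9, trimmed them with cutadapt 2.9 and quantified them with RSEM 1.3.1 over Bowtie2 2.4.1 on mm10. The deposited expected counts are RSEM estimates that need not be whole and were not normalized, and the deposited TPM values were scaled by the authors for transcript length and depth within each library. The use of strand was not given in the sources used here.

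The expected counts were rounded, DMHCA libraries 1 and 3 were summed, and edgeR 4.0.16 was fitted to 3 control and 2 DMHCA samples (TMM, filterByExpr with a minimum count of 10, quasi-likelihood F-test, Benjamini-Hochberg adjustment over all genes tested). Alternatives used DESeq2 1.42.0 and limma 3.58.1 in R 4.3.3, and further tables Python 3.11.15. Each SE is the size of the log2 fold change over the root of its F value. Normalized counts were scaled by TMM to the mean effective library size. The procedure was tested on simulated data. With 46358654 to 63420620 counts a library, genes of a few counts are imprecise. The study states separate mice, but DMHCA libraries 1 and 3 were closer than separate animals of these groups otherwise were, and p-values measure only the spread between these samples.

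The fat cell genes and all lists were chosen with earlier results of these data known. All 35 genes are reported, and of the other lists at most 3 genes with the smallest unadjusted p under 0.05, plus genes set beside a result. Gene positions and exon overlaps are from GENCODE M21 on GRCm38, the build equal to mm10, and promoters from RefSeq on GRCm38.p6.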

Additional observations from a re-analysis of the deposited data

How the results depend on the processing

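Size factors in place of TMM left 18 fat cell genes lower (4.06% of all genes) and 2 higher (3.53%) at an unadjusted p under 0.05 by edgeR. The mean in place of the sum of the near-identical pair left the same counts (3.95% and 3.51% of all genes). In both, 0 had an adjusted p under 0.05 and the median log2 fold change was -2.35. DESeq2 called 244 genes on 5 samples and 846 on 6 libraries. Among these were 14 and 19 fat cell genes, all lower (0.967% and 2.68% of all genes), and 6 and 12 genes of the other lists. On 6 libraries DESeq2 gave 1 fat cell gene higher (4.14% of all genes) and 32 genes of the other lists at an unadjusted p under 0.05. Without the filter edgeR called 16 genes, 3 of them fat cell genes that were lower, and 30 genes of the other lists had an unadjusted p under 0.05 against 19 with it. limma on log2(TPM + 1) gave 9 lower (1.72% of all genes) and 0 higher (5.57%) at that level, a median of -0.93 and 11 genes of the other lists. On log2(TPM + 0.1) it gave 1 higher (5.44% of all genes). On 6 libraries edgeR gave 1 higher (7.56% of all genes). Replicate numbers were shared by the groups. Deviations of same-numbered libraries from their group means had correlations of -0.061, 0.373 and 0.406, and those of control 3 and DMHCA 1 had 0.410. With DMHCA 1 and 3 near-identical, these values cannot decide whether the numbers paired the samples. With the replicate block on 6 libraries 15 were lower (8.08% of all genes) and 1 higher (9.1%), which was Pnpla2 and neither Dio2 nor Ebf2, 0 passed the adjusted p and the median was -1.84.

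Leaving out 1 library gave 9 to 23 lower (1.48% to 6.48% of all genes) and 0 to 2 higher fat cell genes (2.16% to 3.34%) at an unadjusted p under 0.05, medians of -2.74 to -1.16 and 9 to 26 genes of the other lists. The lowest counts, 9, 0 and 9, came without DMHCA 2. Without DMHCA 1 and 3 together there were 12 lower (3.15% of all genes) and 3 higher (2.02%). In these 2 fits, without DMHCA 2 or without DMHCA 1 and 3, the lone DMHCA sample is assumed to vary like the controls. Of the 34 genes, 26 kept their direction under every alternative that gave them a value, which 4 or fewer did not for Acvr1c, Tshr and Ebf2. Without control 3, Cebpa (0.32), Lipe (0.31), Dgat2 (0.10), Adig (0.03) and Gpd1 (0.66) turned higher. Without DMHCA 2, Cebpa (0.47), Lipe (0.06), Lgals12 (0.02) and Gpd1 (0.26) turned higher and Cidea (-1.47) lower. Without DMHCA 1 and 3, Pnpla2 (-0.24) and Dgat2 (0.12) turned. The block turned Cidea (-0.43) and Gpd1 (0.11), DESeq2 on 6 libraries Cebpa (0.01), and limma Gpd1 (0.11 and 0.13). Over single libraries left out in turn these genes ranged from -0.63 (Cebpa), -0.86 (Lipe), -1.53 (Dgat2), -1.20 (Adig), -1.07 (Lgals12) and -0.66 (Gpd1) up to the positive values above, and Cidea up to 1.40. Without DMHCA 1 and 3 together all lay beyond these ends, at -1.70 (Cebpa), -1.11 (Lipe), -1.45 (Adig), -2.78 (Lgals12), -1.06 (Gpd1) and 2.21 (Cidea). Dgat2 did so only just, at 0.12 against at most 0.10. The cause was not tested.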
